A study of Mus musculus with 2 samples.

Results

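Ccl2, Ccl7 and Ccl12, which encode ligands of the chemokine receptor CCR2, and the receptor gene Ccr2 were followed through the immune cells of a mouse glioma. These 4 genes were taken by symbol from 31253 genes, whatever their levels. Tumours of the mouse glioma line GL261 had been established in C57BL/6 brains, and leukocytes were sorted from them by CD45, a surface protein of these cells. For 1 library the animals received 20 mg/kg of ibudilast by gavage on a schedule of 5 doses a week over 2 weeks. For the other library they received PBS, although one label calls it untreated. Ibudilast is a small molecule that inhibits phosphodiesterases. How many animals each library pools, and their age and sex, are not stated in the labels. With 1 library per group, no difference below has a replicate check, and each ratio compares 2 libraries and not 2 treatments.

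The ibudilast library held 8483 barcodes and 82196922 unique molecular identifiers (UMIs, each standing for 1 captured RNA molecule), and the PBS library 8968 barcodes and 119113794 UMIs. After filtering, 6655 ibudilast cells with a median of 7859 UMIs and 7666 PBS cells with a median of 11659.5 UMIs remained. Barcodes over the mitochondrial limit of 10% were 15.6% of the ibudilast library and 8.93% of the PBS library. Haemoglobin RNA, counted without the few cells of 20 or more such UMIs, stood at 72.4 counts per 1000000 UMIs (CPM) in ibudilast and 7.51 CPM in PBS cells. The libraries shared 19 barcodes, 13 of them among kept cells.

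CCR2 is a G protein-coupled receptor best known for bringing Ly6C-high monocytes out of the bone marrow and into inflamed tissue. Its ligands are small secreted proteins of the CC family, named for a pair of neighbouring cysteines. CCL2 binds CCR2, CCL7 binds CCR2 and other CC receptors, and CCL12 is a mouse ligand of CCR2. In gliomas, monocytes that enter from the blood lose Ly6c2 and gain macrophage genes such as those of complement C1q, while microglia are the macrophages that live in the brain from early life.

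The 3 ligand genes lie on the plus strand of chromosome 11 (GRCm38, the assembly also called mm10; GENCODE M21 annotation), and all are protein-coding. Ccl2 covers chr11:82035571-82037453, Ccl7 chr11:82045712-82047525 and Ccl12 chr11:82101845-82103400, each with at most 3 exons in a transcript. Ccl11 lies between Ccl7 and Ccl12, and Ccl8 follows Ccl12. Ccr2 covers chr9:124101950-124113557 on the plus strand. Since the ligand genes are paralogs whose reads could be confused, their coding sequences around the cysteine pair are shown, from GENCODE M21 transcripts, 5′ to 3′, with the adjacent cysteine codons in capitals.
Ccl2: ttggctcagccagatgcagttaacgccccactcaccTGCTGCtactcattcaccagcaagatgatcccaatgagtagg
Ccl7: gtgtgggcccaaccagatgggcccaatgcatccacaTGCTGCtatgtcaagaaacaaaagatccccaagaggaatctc
Ccl12: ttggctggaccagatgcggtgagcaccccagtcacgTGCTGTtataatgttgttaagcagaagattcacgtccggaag
Over these 78 bases, 47 were identical between Ccl2 and Ccl12, 31 between Ccl2 and Ccl7 and 28 between Ccl7 and Ccl12. Over whole transcripts, the longest exact run was 23 bases between Ccl2 and Ccl7, 17 between Ccl2 and Ccl12 and 11 between Ccl7 and Ccl12. The labels do not state the read length.

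The RefSeq promoter table (GRCm38.p6) held Ccl12 and Ccr2, 2 of the 4 genes. The Ccl12 window, chr11:82101595-82101894 on the plus strand, is shown as the ligand promoter in that table, since Ccl12 RNA differed between monocytes and macrophages in both libraries. It runs from 250 bases before to 50 bases after the start site, with matches to GAGGAA and to TATAAA in capitals.
Ccl12 promoter: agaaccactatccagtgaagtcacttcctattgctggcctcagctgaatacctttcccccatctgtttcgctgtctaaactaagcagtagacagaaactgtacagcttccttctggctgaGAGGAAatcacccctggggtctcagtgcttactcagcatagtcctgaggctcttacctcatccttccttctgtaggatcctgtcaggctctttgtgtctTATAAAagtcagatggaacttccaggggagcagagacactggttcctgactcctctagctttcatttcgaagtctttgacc
The TATAAA match begins at position -31 from the start site. The match to GAGGAA, a core bound by the myeloid factor PU.1, begins at position -130 and does not overlap it. On either strand, TATAAA occurs in 13.6% and GAGGAA in 28.3% of 32851 promoters of this length. The same search found no match in the Ccl12 window to an NF-kB-like motif (GGG and CC with 5 free bases between), an AP-1 motif (TGA and TCA with 1 between), an interferon response motif (GAAA repeated with 2 between) or a C/EBP-like motif (TTGC and AA with 2 between). These occur in 50.8%, 7.81%, 3.44% and 10.8% of promoters. The Ccr2 window, chr9:124101933-124102232 on the plus strand, held none of these 6 motifs. It lies mostly inside the Ccr2 span given above, which begins at 124101950. Bases further upstream of that span were not searched.

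Cells were typed by marker genes, none of them among the 4 genes studied. Monocytes had Ly6c2 and Plac8 and little C1q, macrophages had C1q and little Ly6c2 or Plac8, and cells with both are called transitional. These classes are ranges of 2 scores and not separate types. They held 1079 ibudilast and 774 PBS monocytes, 1076 ibudilast and 1028 PBS transitional cells, and 967 ibudilast and 2870 PBS macrophages. Close to a limit lay 73 ibudilast and 86 PBS monocytes, 143 ibudilast and 144 PBS transitional cells, and 65 ibudilast and 107 PBS macrophages. Microglia, typed by P2ry12, Sall1, Siglech, Gpr34 and Sparc, numbered 42 in the ibudilast and 125 in the PBS library. Their Sall1 level was 74.4 CPM in ibudilast and 91.6 CPM in PBS cells. In macrophages Sall1 was at 1.92 CPM in ibudilast and 1.22 CPM in PBS cells, a contrast that the typing itself makes. Tmem119, a microglia marker not used for typing, was at 457 CPM in ibudilast and 449 CPM in PBS microglia. In macrophages Tmem119 was at 139 CPM in ibudilast and 184 CPM in PBS cells. The labels call the sorted cells lymphocytes, but T, NK and B cells with little C1q numbered 1083 in the ibudilast and 721 in the PBS library. A further 907 ibudilast and 880 PBS barcodes held lymphocyte and C1q RNA together and were set apart.

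Ccl2 RNA was found throughout the myeloid cells and was higher in monocytes than in macrophages. Its level was 644 CPM in ibudilast monocytes (95% Poisson interval 627 to 662) and 759 CPM in PBS monocytes (738 to 780). Transitional cells held 486 CPM in the ibudilast and 516 CPM in the PBS library, and macrophages 309 CPM in the ibudilast and 479 CPM in the PBS library. These intervals cover counting error only and ignore how cells vary, which makes them narrow for a gene whose UMIs sit in few cells. Mast cells or basophils, at 1111 CPM in the ibudilast and 989 CPM in the PBS library, stood above monocytes in both. Barcodes typed as neutrophils did so too, at 870 CPM in the ibudilast and 1239 CPM in the PBS library, but on few cells. A Ccl2 UMI was found in 7 of 38 ibudilast and 7 of 34 PBS neutrophils. Of the 136 Ccl2 UMIs of PBS neutrophils, 1 cell carried 100. Ly6c2, a monocyte marker, stood at 2565 CPM in ibudilast and 710 CPM in PBS neutrophils. In monocytes it stood at 2974 CPM in ibudilast and 2379 CPM in PBS cells. The part of monocyte RNA in neutrophil Ccl2 was not tested. The intervals of mast cells and neutrophils overlapped in each library. Microglial Ccl2, at 316 CPM in the ibudilast library, overlapped macrophages there, and at 589 CPM in the PBS library lay between monocytes and transitional cells.

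Ccl7 and Ccl12 had the opposite order, with more RNA in macrophages than in monocytes. Ccl7 stood at 68.8 CPM in ibudilast and 138 CPM in PBS monocytes, at 173 CPM in ibudilast and 249 CPM in PBS transitional cells, and at 315 CPM in ibudilast and 432 CPM in PBS macrophages. Macrophages had the highest Ccl7 level of the 17 named types in each library, with no overlap with the next type. Ccl12 stood at 188 CPM in ibudilast and 209 CPM in PBS monocytes, at 584 CPM in ibudilast and 617 CPM in PBS transitional cells, and at 732 CPM in ibudilast and 972 CPM in PBS macrophages. Microglia led for Ccl12, at 792 CPM in the ibudilast library (705 to 887), where they overlapped macrophages, and at 1182 CPM in the PBS library (1131 to 1234), where they did not. Microglial Ccl7 was 47.8 CPM in the ibudilast and 216 CPM in the PBS library, below macrophages in both.

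**Figure D1:**
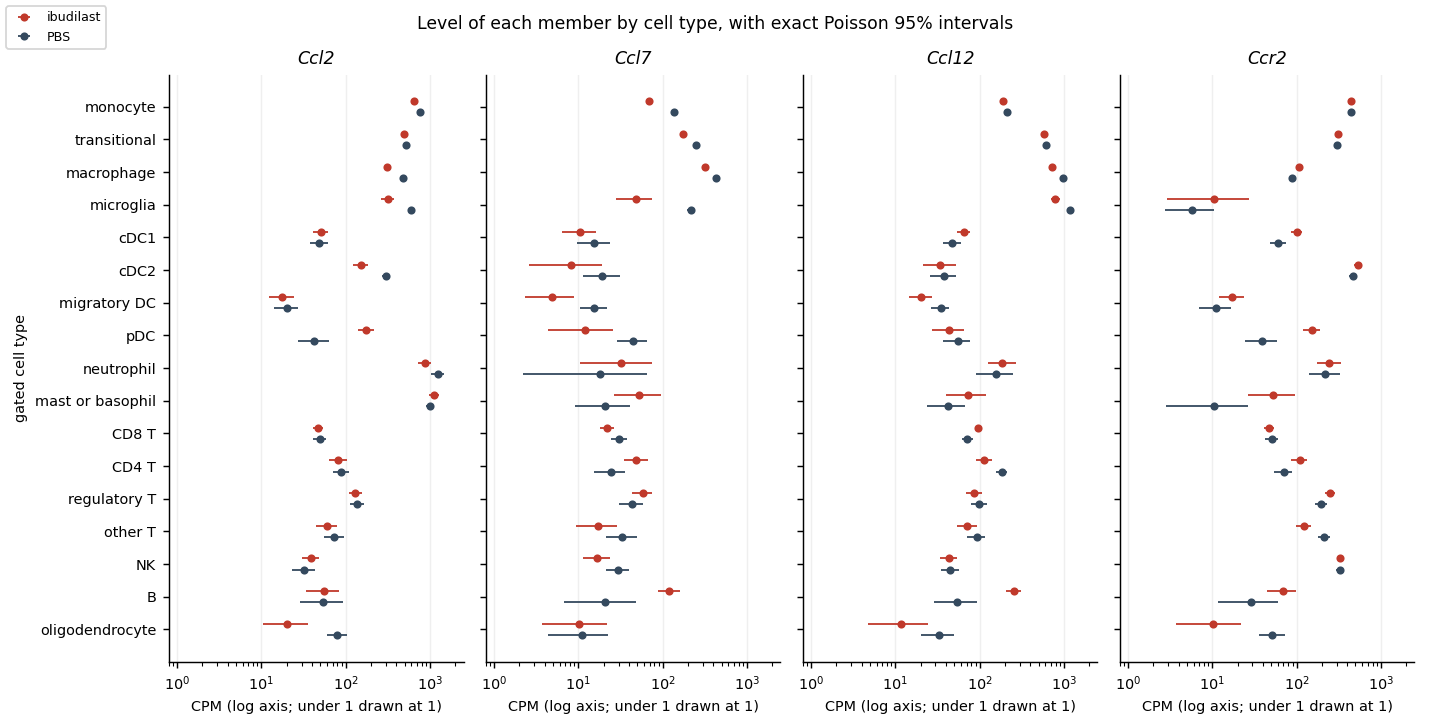
Level of each gene in CPM of summed UMIs (log axis) in the named cell types, 1 library a point, with exact Poisson 95% intervals. Ccl7 and Ccl12 are higher in macrophages than in monocytes of the same library, while Ccl2 and Ccr2 are lower.

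Some ligand RNA appeared in every named type, so low levels were read against migratory dendritic cells. These cells, marked by Ccr7, had median depths of 6833 UMIs in the ibudilast and 7676.5 in the PBS library, near those of monocytes at 6823 in ibudilast and 7866.5 in PBS cells. With every cell thinned to 1000 UMIs, a Ccl2 UMI was found in 25.7% of ibudilast and 30.5% of PBS monocytes, against 1.33% of ibudilast and 3.41% of PBS migratory dendritic cells. Migratory dendritic cells had the lowest Ccl2 level of the 17 named types in each library. They ranked 16 or 17 for Ccl7 and Ccl12, so they are a low reference. Thinned Ccl2 was found in 7.14% of ibudilast and 5.31% of PBS CD4 T cells. In B cells it was found in 6.12% of ibudilast and 7.14% of PBS cells. Monocyte shares were above those of these 3 types in both libraries. Without thinning they were 48.2% of ibudilast and 59.0% of PBS monocytes, against 11.01% of ibudilast and 16.3% of PBS migratory dendritic cells. Thinned Ccl7 was found in 4.38% of ibudilast and 7.37% of PBS monocytes and in 16.5% of ibudilast and 23.5% of PBS macrophages, against 0.885% of ibudilast and 1.14% of PBS migratory dendritic cells. In CD4 T cells thinned Ccl7 was found in 3.57% of ibudilast and 4.42% of PBS cells. In B cells it was found in 6.12% of ibudilast and 0% of PBS cells. The Ccl7 level of ibudilast monocytes also overlapped that of regulatory T cells, at 57.7 CPM. Ccl7 in ibudilast monocytes was thus not clear of lymphocytes. Thinned Ccl12 was found in 35.3% of ibudilast and 42.1% of PBS macrophages, against 2.21% of ibudilast and 3.98% of PBS migratory dendritic cells.

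Lymphocytes held little ligand RNA. Ccl2 in T, NK and B cells together stood at 57.9 CPM in the ibudilast and 65.5 CPM in the PBS library, Ccl7 at 30.2 CPM in ibudilast and 31.0 CPM in PBS cells, and Ccl12 at 90.7 CPM in ibudilast and 87.0 CPM in PBS cells. Single barcodes weighed on these levels, as 1 ibudilast CD8 T cell carried 237 of the 455 Ccl12 UMIs of its type and 1 ibudilast B cell 31 of the 46 Ccl7 UMIs of its type. Together these cells carried 3.18% of ibudilast and 0.858% of PBS Ccl12 UMIs.

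By total UMIs, macrophages were the main named source of the ligands in the PBS library. They carried 16.1% of the Ccl2 UMIs of kept ibudilast cells and 50.6% of those of kept PBS cells. For Ccl7 the macrophage share was 31.6% in the ibudilast and 63.6% in the PBS library, and for Ccl12 it was 29.6% in the ibudilast and 65.1% in the PBS library. Macrophages were 14.5% of kept ibudilast and 37.4% of kept PBS cells, so these shares follow both cell numbers and levels. Monocytes carried 24.9% of ibudilast and 11.8% of PBS Ccl2 UMIs. Barcodes with lymphocyte and C1q RNA carried 23.3% of ibudilast and 13.9% of PBS Ccl2 UMIs, 35.4% of ibudilast and 16.4% of PBS Ccl7 UMIs, and 31.7% of ibudilast and 13.6% of PBS Ccl12 UMIs. In the ibudilast library these Ccl7 and Ccl12 shares exceeded those of macrophages. Their median depth was 18146 UMIs in the ibudilast and 19320.5 in the PBS library. It was 10544 in ibudilast and 15281.5 in PBS macrophages, and 8632 in ibudilast and 8615.5 in PBS CD8 T cells. Whether such barcodes are doublets was not settled.

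The design asks whether the genes differ between ibudilast and PBS within a cell type. In macrophages the 3 ligands were lower in the ibudilast library. The ratio of CPM, ibudilast over PBS, was 0.646 for Ccl2 (exact conditional 95% interval 0.623 to 0.670). It was 0.728 for Ccl7 (0.702 to 0.755) and 0.753 for Ccl12 (0.735 to 0.771). Ccr2, at 106 CPM in ibudilast and 89.3 CPM in PBS macrophages, stood at 1.18 (1.11 to 1.26). A gene was called when it had at least 20 UMIs over both libraries and a ratio below 0.8 or above the inverse of 0.8. By this rule 3 of the 4 genes were called lower, where 7.34% of 12165 genes measured in macrophages were called lower and 14.3% higher. Among macrophage genes with at least 1000 UMIs, a minimum chosen after the values were seen, 2.49% were below 0.8.

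The macrophage calls of Ccl2 and Ccl7 held under all 11 other ways of processing, with ratios of 0.578 to 0.771 for Ccl2 and 0.652 to 0.775 for Ccl7. The Ccl12 call ended under 4 of 11: its ratio was 0.815 with each cell weighted alike, 0.837 in Leiden clusters, 0.878 with cells thinned to 1000 UMIs and 0.925 with each cell capped at 20 UMIs of the gene. Macrophages had a median depth of 10544 UMIs in the ibudilast and 15281.5 in the PBS library. Markers of other cells differed too, in both directions. The 5 T cell markers summed to 39.3 CPM in ibudilast and 18.2 CPM in PBS macrophages, and the 5 oligodendrocyte markers to 83.6 CPM in ibudilast and 38.2 CPM in PBS macrophages. Haemoglobin genes summed to 67.1 CPM in ibudilast and 6.31 CPM in PBS macrophages. A list of 4 markers of type 2 dendritic cells went the other way, at 91.3 CPM in ibudilast and 197 CPM in PBS macrophages. Cd209a, which typed those cells, gave 0.183 CPM in ibudilast and 0.131 CPM in PBS macrophages. That sum thus came almost wholly from the other genes of the list. No gene of these lists was at 0. Their part in the ligand ratios was not tested.

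In monocytes and transitional cells Ccl7 was the member below the call limit. Monocyte Ccl7 had a ratio of 0.497 (0.447 to 0.553), 1 of 4 genes called lower, where 12.4% of 10590 genes were called lower and 12.7% higher. Monocyte Ccl2 stood at 0.849 (0.817 to 0.883), Ccl12 at 0.898 (0.834 to 0.966) and Ccr2, at 445 CPM in ibudilast and 441 CPM in PBS monocytes, at 1.01 (0.961 to 1.06). Transitional Ccl7 had a ratio of 0.695 (0.654 to 0.738), again 1 of 4 genes, where 9.72% of 11178 genes were called lower and 13.1% higher. Transitional Ccl2 stood at 0.943 (0.908 to 0.980), Ccl12 at 0.948 (0.916 to 0.982) and Ccr2 at 1.03 (0.985 to 1.09). The Ccl7 call in transitional cells held under all 10 alternatives. Markers of other cells differed beside these ratios. In monocytes the T cell markers summed to 47.0 CPM in ibudilast and 20.6 CPM in PBS cells, oligodendrocyte markers to 139.5 CPM in ibudilast and 66.4 CPM in PBS cells, and markers of type 2 dendritic cells to 92.7 CPM in ibudilast and 169.6 CPM in PBS cells. In transitional cells the type 2 dendritic markers summed to 72.9 CPM in ibudilast and 164 CPM in PBS cells, and haemoglobin genes to 323 CPM in ibudilast and 822 CPM in PBS cells. Of the type 2 dendritic sums, Cd209a gave 2.96 CPM in ibudilast and 3.71 CPM in PBS monocytes. In transitional cells Cd209a gave 1.31 CPM in ibudilast and 0.957 CPM in PBS cells. The haemoglobin sums rest on few barcodes. Over all types, 13 ibudilast and 4 PBS cells held 20 or more such UMIs. Without those cells, haemoglobin over all types was higher in the ibudilast library, at 72.4 CPM against 7.51 CPM in PBS. Of these lists, only the oligodendrocyte one had a gene at 0, Mog in PBS monocytes. Their part in the Ccl7 ratios was not tested.

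The monocyte values depended on which cells were taken as monocytes. Ccl2 came below 0.8 under 3 of 12 alternatives, at 0.764 with stricter gates, 0.777 in Leiden clusters and 0.690 in monocytes with no C1q UMI. Those monocytes numbered 99 in the ibudilast and 19 in the PBS library, with 40 Ccl7 UMIs in ibudilast and 1 in PBS cells. There the Ccl7 ratio turned, to 7.41 with a counting interval of 1.26 to 300. The Ccl12 ratio turned too, to 3.36 (1.58 to 8.53), on 127 UMIs in ibudilast and 7 in PBS cells. In monocytes with C1q UMIs the ratio was 0.490 for Ccl7 and 0.876 for Ccl12.

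Microglia had lower ligand levels in the ibudilast library, on few cells. The ratio was 0.538 for Ccl2 (0.441 to 0.650), 0.222 for Ccl7 (0.130 to 0.355) and 0.670 for Ccl12 (0.592 to 0.757). All 3 ligands were called lower, where 30.9% of 7220 genes were called lower and 19.6% higher, so the count is less far from its background than in macrophages. Ccl7 rested on 18 UMIs in ibudilast and 375 in PBS microglia, and its ratio was 0.479 with stricter gates, 0.113 with a stricter cell filter, 0.386 with cells weighted alike and 0.407 (0.0451 to 1.75) with thinned cells. The Ccl12 ratio was 0.989 with each cell capped at 20 UMIs. Ccr2 had 4 UMIs in ibudilast and 10 in PBS microglia, too few for a call. Median depth was 6235 UMIs in ibudilast and 13300 in PBS microglia. The 6 classical monocyte markers summed to 93.0 CPM in ibudilast microglia, with Vcan, Chil3 and Hp at 0, and to 36.9 CPM in PBS microglia, with Vcan and Hp at 0. The part of depth and of these markers was not tested.

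**Figure D2:**
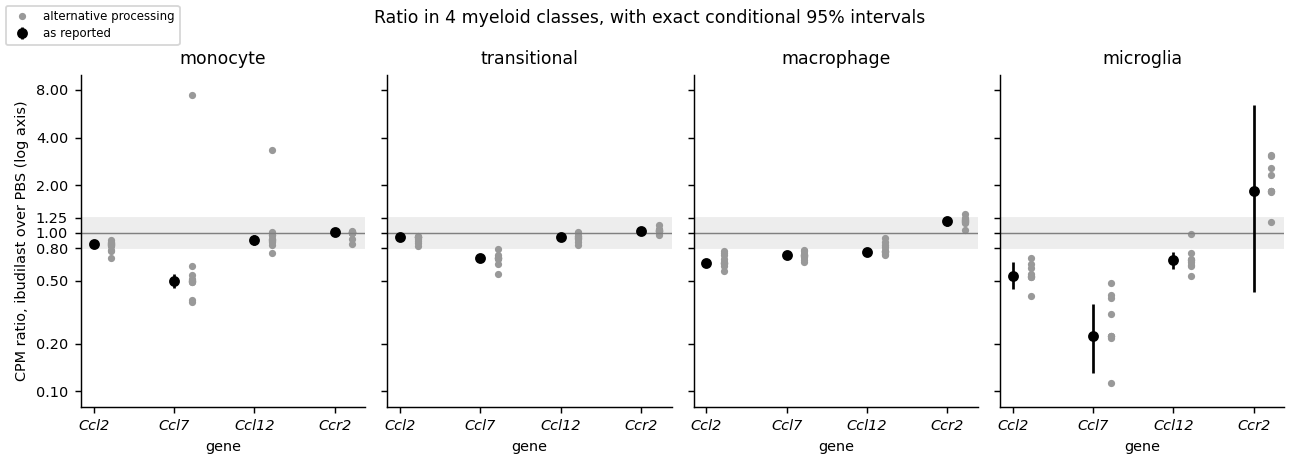
CPM ratio of ibudilast over PBS (log axis) in 4 myeloid classes, in black with the exact conditional 95% interval and in grey under other processing, with the range inside the call limits shaded. The macrophage ratios of Ccl2 and Ccl7 lie below the band throughout, and the outlying monocyte Ccl7 point of 7.41 rests on 40 ibudilast UMIs and 1 PBS UMI.

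Over all kept cells, Ccl7 and Ccl12 were further from a ratio of 1 than in macrophages. Ccl2 stood at 299 CPM in ibudilast and 414 CPM in PBS cells (ratio 0.721), Ccl7 at 155 CPM in ibudilast and 297 CPM in PBS cells (0.521), Ccl12 at 385 CPM in ibudilast and 653 CPM in PBS cells (0.589), and Ccr2 at 191 CPM in ibudilast and 147 CPM in PBS cells (1.30). These totals combine the levels within types with the share of UMIs that each type gave. With ibudilast levels and PBS type shares, over 19 groups of cells, the ratio was 0.744 for Ccl2, 0.711 for Ccl7, 0.792 for Ccl12 and 1.10 for Ccr2. With PBS levels and ibudilast type shares, it was 0.889 for Ccl2, 0.742 for Ccl7, 0.699 for Ccl12 and 1.21 for Ccr2. The levels alone were further from 1 for Ccl2 and Ccl7, and the type shares alone for Ccl12 and Ccr2.

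The same cells were then placed along the range from monocyte to macrophage by the C1q share of their C1q, Ly6c2 and Plac8 UMIs. At a share below 10%, Ccl2 was at 664 CPM in 769 ibudilast cells and 961 CPM in 467 PBS cells. From 10% to 40% it was at 691 CPM in ibudilast and 641 CPM in PBS cells, so the order of the libraries turned. Above 99% it was at 273 CPM in 645 ibudilast cells and 486 CPM in 2257 PBS cells, a ratio of 0.562. Ccl12 ratios lay between 0.899 and 1.22 up to a share of 95%, and were 0.738 from 95% to 99% and 0.755 above 99%. The Ccl12 ratios under 0.8 thus belonged to the macrophage end. Ccl7 ratios along the range were 0.345, 0.821, 0.510, 1.08, 0.793 and 0.673, in no steady order.

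Ccr2 was lower toward the macrophage end in both libraries. It stood at 501 CPM in ibudilast and 555 CPM in PBS cells at a share below 10%, and at 66.6 CPM in ibudilast and 67.6 CPM in PBS cells above 99%. The lowest ratio along the range was 0.873, from 80% to 95%, and the highest was that from 40% to 80%, at 386 CPM in ibudilast and 309 CPM in PBS cells.

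**Figure D3:**
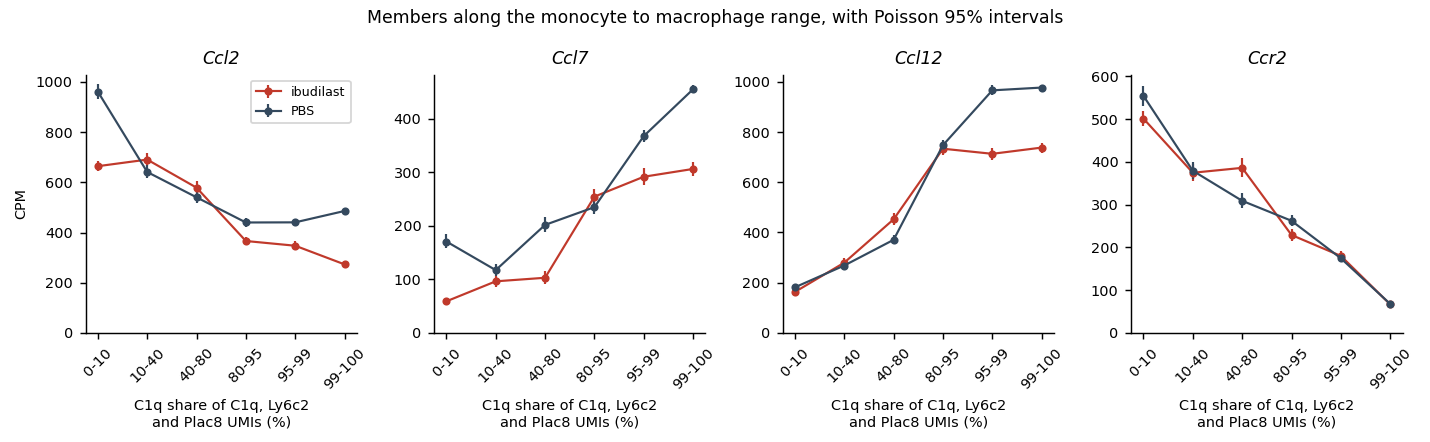
CPM of each gene with Poisson 95% intervals in 6 ranges of the C1q share of C1q, Ly6c2 and Plac8 UMIs, with the monocyte end on the left and 1 library a line. Above a share of 95% Ccl12 is at 713 and 738 CPM in ibudilast cells and at 966 and 977 CPM in PBS cells.

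Macrophages were split by 4 marker lists, with limits set after the data were seen, and the ligand ratios were uneven among the groups. Ccl2 was below 0.8 in all 5 groups, from 0.514 in cells high for the Arg1 list to 0.729 in cells high for the Gpnmb list. Ccl7 was at 373 CPM in ibudilast and 385 CPM in PBS cells of the Gpnmb group, and at 467 CPM in ibudilast and 472 CPM in PBS cells of the Cxcl9 group. It was at 350 CPM in ibudilast and 567 CPM in PBS cells of the Arg1 group (0.616), at 188 CPM in ibudilast and 326 CPM in PBS cells of the MHC class II group (0.577), and at a ratio of 0.452 in cells low for all 4 lists. The Ccl7 gap thus lay in 3 of the 5 groups. Ccl12 ratios ran from 0.558 in cells low for all lists to 0.887 in the Arg1 group. Ccr2 was at 72.5 CPM in ibudilast and 40.6 CPM in PBS cells of the Gpnmb group (1.79), and at 115 CPM in ibudilast and 72.7 CPM in PBS cells of the Arg1 group (1.58). The Arg1 group was 9.72% of ibudilast and 18.8% of PBS macrophages, and the Gpnmb group 19.6% of ibudilast and 11.5% of PBS macrophages. Differences between the groups' ratios were not tested.

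**Figure D4:**
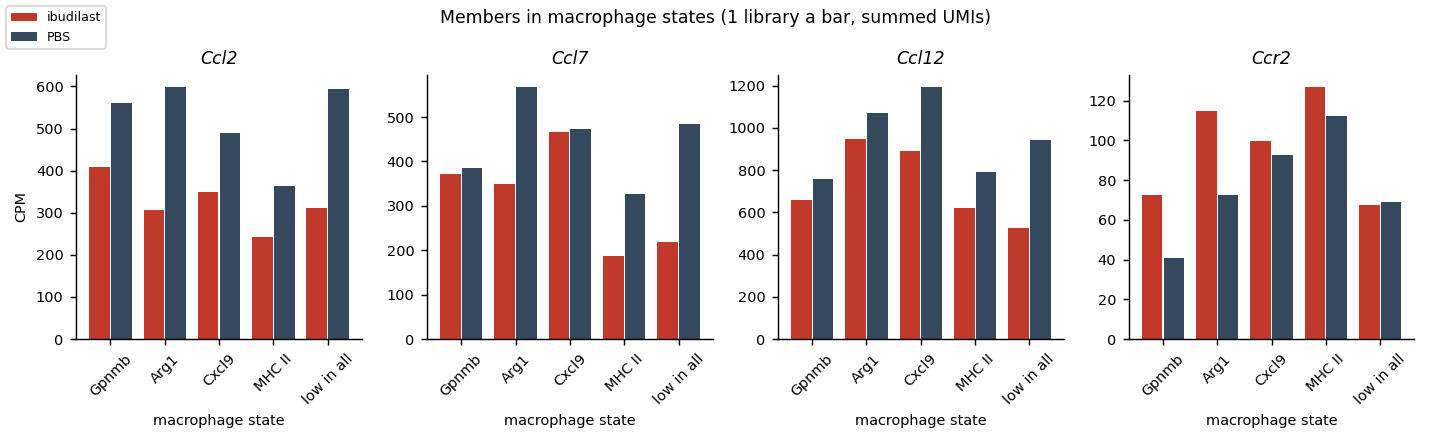
CPM of each gene in macrophages split by marker list, 1 library a bar. Ccl7 is at 373 CPM in ibudilast and 385 CPM in PBS cells of the Gpnmb group, and at 188 CPM in ibudilast and 326 CPM in PBS cells of the MHC class II group.

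UMIs of the ligands were unevenly spread over cells. The 10% of monocytes with most UMIs of a gene held 94.8% of Ccl7 in the ibudilast and 92.4% in the PBS library, 77.5% of Ccl12 in the ibudilast and 77.2% in the PBS library, and 66.1% of Ccl2 in the ibudilast and 61.1% in the PBS library. For Ccr2 this share was 38.1% in ibudilast and 38.2% in PBS monocytes. Any Ccl7 UMI was found in 12.7% of ibudilast and 19.3% of PBS monocytes, so the top 10% must hold most of them, and any Ccr2 UMI in 72.2% of ibudilast and 72.7% of PBS monocytes. These shares therefore do not compare how the genes are spread. In macrophages the top 10% held 73.6% of Ccl7 in the ibudilast and 58.3% in the PBS library, 59.4% of Ccl2 in the ibudilast and 53.5% in the PBS library, and 56.1% of Ccl12 in the ibudilast and 49.6% in the PBS library. For Ccr2 the macrophage share was 62.3% in the ibudilast and 57.9% in the PBS library, above those of Ccl2 and Ccl12. A single PBS macrophage held 640 Ccl2 UMIs.

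**Figure D5:**
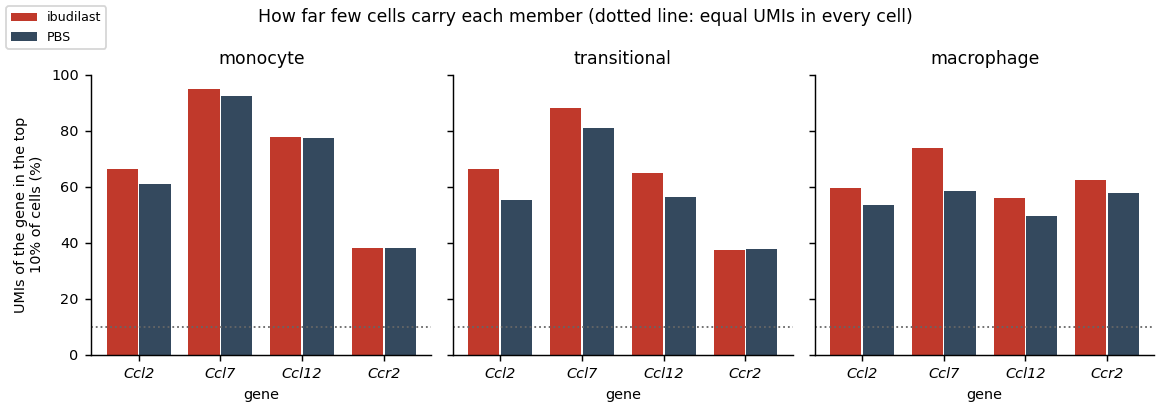
Share of the UMIs of each gene held by the 10% of cells with most of them, in monocytes, transitional cells and macrophages of each library. Monocyte Ccl7 reaches 94.8% in ibudilast and 92.4% in PBS cells, and monocyte Ccr2 38.1% in ibudilast and 38.2% in PBS cells; any Ccl7 UMI was found in 12.7% of ibudilast and 19.3% of PBS monocytes.

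In thinned monocytes, transitional cells and macrophages of both libraries, cells with RNA of 1 ligand more often held RNA of each other ligand, by description and without a test. This did not hold for every pair in microglia or mast cells: Ccl12 was found in 40% of the 10 PBS microglia with a Ccl7 UMI, against 50.4% of those without. In thinned macrophages with a Ccl7 UMI, Ccl12 was found in 52.6% of ibudilast and 59.1% of PBS cells, against 31.9% of ibudilast and 36.8% of PBS cells without one. In thinned monocytes with a Ccl7 UMI, Ccl2 was found in 53.2% of ibudilast and 61.4% of PBS cells, against 24.5% of ibudilast and 28.1% of PBS cells without one. Ccr2 was found in 38.04% of ibudilast and 37.7% of PBS monocytes with a Ccl2 UMI, against 30.4% of ibudilast and 31.3% of PBS monocytes without one. For Ccl12 the libraries differed in direction. Ccr2 was in 41.5% of ibudilast and 31.1% of PBS monocytes with a Ccl12 UMI. Without one, it was in 31.2% of ibudilast and 33.6% of PBS monocytes. In macrophages the libraries differed in direction for Ccl2, with Ccr2 in 10.6% of ibudilast and 5.76% of PBS cells with a Ccl2 UMI, against 9.02% of ibudilast and 8.36% of PBS cells without one. For Ccl7 they did not, with Ccr2 in 8.55% of ibudilast and 6.60% of PBS macrophages with a Ccl7 UMI, against 9.49% of ibudilast and 7.99% of PBS macrophages without one. A ligand and Ccr2 were found in the same cell in 12.6% of thinned ibudilast and 14.9% of thinned PBS monocytes, and in 4.45% of ibudilast and 3.99% of PBS macrophages. No ligand was found in 49.4% of thinned ibudilast and 39.3% of thinned PBS macrophages.

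Ccr2 levels were led by barcodes typed by Cd209a as type 2 conventional dendritic cells, which present antigen, and by monocytes. These dendritic cells had 531 CPM in the ibudilast library, above monocytes beyond the intervals, and 465 CPM in the PBS library, overlapping monocytes. Their Ly6c2, a monocyte marker, stood at 1447 CPM in ibudilast and 1079 CPM in PBS cells. In type 1 conventional dendritic cells Ly6c2 stood at 335 CPM in ibudilast and 131 CPM in PBS cells. The part of monocyte RNA in the Ccr2 of the type 2 cells was not tested. NK cells had 325 CPM in the ibudilast and 325 CPM in the PBS library (ratio interval 0.884 to 1.13), overlapping transitional cells at 314 CPM in the ibudilast and 303 CPM in the PBS library. Regulatory T cells had 251 CPM in the ibudilast and 195 CPM in the PBS library (1.28, 1.05 to 1.57), a call of higher that 23.6% of 7484 genes of that type also had. CD8 T cells had 47.7 CPM in the ibudilast and 51.2 CPM in the PBS library. Microglia, at 10.6 CPM in the ibudilast and 5.76 CPM in the PBS library, were among the lowest named types. So were migratory dendritic cells, at 17.1 CPM in the ibudilast and 10.98 CPM in the PBS library. Microglial Ccr2 was therefore not read as expression. Thinned Ccr2 was found in 32.3% of ibudilast and 33.2% of PBS monocytes, against 1.33% of ibudilast and 1.14% of PBS migratory dendritic cells.

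Other genes of the pathway were counted by the same rule. The list counts below stand beside 7.34% lower and 14.3% higher over all macrophage genes, 12.4% lower and 12.7% higher over all monocyte genes, and 9.72% lower and 13.1% higher over all transitional cell genes. Of 7 measured CC ligands of the chromosome 11 group beside the members, 3 were higher and 3 lower in ibudilast macrophages. Ccl8, a neighbour of Ccl12, was at 192 CPM in ibudilast and 113 CPM in PBS macrophages (1.70), and Ccl5, a T cell and monocyte attracting chemokine, at 534 CPM in ibudilast and 370 CPM in PBS macrophages. Ccl9 was at 34.7 CPM in ibudilast and 55.6 CPM in PBS macrophages (0.625). The ligand genes of this group thus did not share 1 direction. In monocytes 1 of 6 was higher, Ccl5 at 936 CPM in ibudilast and 515 CPM in PBS cells (1.82), and 3 were lower, among them Ccl6 at 256.2 CPM in ibudilast and 357 CPM in PBS cells (0.717). Of the ligands of other receptors, 4 of 4 were lower in macrophages (7.34% of all genes) and 3 of 4 in monocytes (12.4%). In transitional cells 2 of 4 were lower and 1 higher, Ccl24 at 9.87 CPM in ibudilast and 5.74 CPM in PBS cells (1.72). Csf1, a macrophage growth factor, was at 12.98 CPM in ibudilast and 24.5 CPM in PBS macrophages (0.529), and Ccl24, a ligand of CCR3, at 1.48 CPM in ibudilast and 53.7 CPM in PBS monocytes (0.0276). Of 7 receptors related to CCR2, 3 were higher (14.3% of all genes) and 1 lower in macrophages, the lower one being Ccr1 at 230 CPM in ibudilast and 288 CPM in PBS cells (0.798). The higher ones, 2 of them named after their values were seen, were Cxcr6 at 4.75 CPM in ibudilast and 1.51 CPM in PBS cells, Xcr1 at 2.47 CPM in ibudilast and 1.55 CPM in PBS cells, and Ccr9 at 1.01 CPM in ibudilast and 0.720 CPM in PBS cells. The ratio intervals of Xcr1 (0.982 to 2.51) and Ccr9 (0.636 to 2.83) include 1. These are known from T cells and dendritic cells, and the T cell markers of macrophages summed to 39.3 CPM in ibudilast and 18.2 CPM in PBS cells. The part of other cells' RNA was not tested.

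Genes of CCR2 signalling, such as the G protein subunit Gnb1 and the kinase Jak2, were mostly not called. None of 9 was called in macrophages or transitional cells, and 1 of 9 was lower in monocytes, Nup85 at 6.78 CPM in ibudilast and 8.60 CPM in PBS cells, with a ratio interval of 0.535 to 1.16. Of 4 scavenging receptors and proteases that act on chemokines, 0 were called in macrophages. In monocytes 1 of 4 was higher and 2 lower, beside 12.7% higher and 12.4% lower over all genes. The protease gene Mmp14 was the higher one, at 122 CPM in ibudilast and 88.3 CPM in PBS monocytes (1.38). The protease genes Mmp12, at 15.5 CPM in ibudilast and 34.4 CPM in PBS monocytes (0.452), and Mmp8 (0.660) were lower. In transitional cells 1 of 4 was higher and 2 lower, beside 13.1% higher and 9.72% lower over all genes.

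Of 12 NF-kB targets, 5 were lower (7.34% of all genes) and 0 higher in macrophages, with a median log2 ratio of -0.22 beside 0.04 over all genes. Il1a, an inflammatory cytokine, was at 21.6 CPM in ibudilast and 44.6 CPM in PBS macrophages (0.483), and Cxcl2, a chemokine that draws neutrophils, at 190 CPM in ibudilast and 274 CPM in PBS macrophages (0.694). Cxcl1, Ptgs2 and Tnf were the other lower ones, with ratios of 0.317, 0.652 and 0.738; Tnf was named after its value was seen. In monocytes 2 of 11 targets were lower, Il1a and Cxcl2, the second at 396 CPM in ibudilast and 656 CPM in PBS cells (0.604). Transitional cells had 2 of 11 lower and 2 higher, the higher ones being Nfkbia at 701 CPM in ibudilast and 559 CPM in PBS cells, and Il6, named after its value was seen, at 3.63 CPM in ibudilast and 2.35 CPM in PBS cells. Microglia had 7 of 9 lower and 1 higher, beside 30.9% lower and 19.6% higher over all genes. Of 12 transcription factors of the ligand genes, 1 was lower in macrophages and 1 in monocytes, Nfil3 in each, near the 7.34% of macrophage and 12.4% of monocyte genes called lower.

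Dissociation genes, which tissue handling can induce, had 2 of 12 lower and 0 higher in macrophages, beside 7.34% lower and 14.3% higher over all genes. These were Fosb, at 551 CPM in ibudilast and 786 CPM in PBS cells (0.701), and Atf3 (0.794). In microglia 6 of 12 were lower and 1 higher, beside 30.9% lower and 19.6% higher over all genes. The part of these genes in the ligand ratios was not tested. Of 9 type I interferon response genes, 1 was higher and 0 lower in macrophages and in monocytes alike, beside 14.3% of macrophage and 12.7% of monocyte genes higher. In monocytes this was Isg15, at 2097 CPM in ibudilast and 1483 CPM in PBS cells (1.41). Transitional cells had 3 of 9 higher and 0 lower, beside 13.1% of genes higher, with a median log2 ratio of 0.30 beside 0.01. These were Isg15 (1.39), Ifit1 (1.253) and Ifit2 (1.256). Microglia had 2 of 9 higher and 4 lower, beside 19.6% higher and 30.9% lower over all genes.

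Genes with the most similar pattern were ranked by Pearson's r of log2(CPM + 10) over 22 points, the 11 types with at least 50 cells in each library. The points share libraries and depths, and r is a description. Ccl2 was most like C3 (r = 0.969), then Igsf6, Lyz2, Ccr1 and Tlr2. Ccl7 was most like Plau (0.965), then Itgb5, C3ar1, Pla2g15 and Cndp2, and Ccl12 most like Itgb5 (0.967), then Acp5, Apoe, Ntpcr and C3ar1. Ccr2 was most like Tgfb1, with Fos, Pycard and Ifi203 among the next. Among the members, Ccl7 and Ccl12 had an r of 0.944, Ccl2 and Ccl7 of 0.779, and Ccl2 and Ccl12 of 0.750. Ccr2 had an r of 0.621 with Ccl2, 0.267 with Ccl7 and 0.189 with Ccl12.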

How the data were processed

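The deposited values were raw UMI counts per gene and barcode. The authors made these counts from 10x Genomics 3' libraries, per the labels' protocols. The file headers name Cell Ranger 6.1.1, and the authors used build mm10, per the submitters' processing notes. Barcodes were kept from 300 genes and 500 UMIs upward, if mitochondrial UMIs were under 10%. Scrublet (scanpy 1.11.5) marked 0 cells by its automatic threshold in each library and so had not worked, and the 6% of cells with the highest scores were left out instead (424 ibudilast and 489 PBS cells).

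Monocytes had at least 4 UMIs and 8 per 10000 UMIs of Ly6c2 and Plac8, and under 16 per 10000 of C1qa, C1qb and C1qc. Transitional cells had at least 16, and macrophages at least 64 of C1q with under 8 of Ly6c2 and Plac8. These limits were set after marker distributions were seen. Counts were summed per type and scaled to CPM, without division by length, since they are 3' counts. Levels are therefore not compared between genes. Intervals are at 95%: exact Poisson for levels and exact conditional binomial for ratios. The ratio code was tested on simulated data. There was no test of significance. The members and gene lists were chosen with earlier results of these data known. Genes named from a list are up to 4 with the ratio furthest from 1 among those with at least 100 UMIs in the type. Alternatives covered gates, filters, clustering, weighting, scaling, thinning and doublets. Some items are not reported here.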

Additional observations from a re-analysis of the deposited data

Results flagged for a closer look

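Some types had a ratio of ibudilast over PBS on the other side of 1 from that of another type, and these differences between types were not tested. For Ccl12 the ratio was 1.36 in type 1 conventional dendritic cells and 1.36 in CD8 T cells, against 0.753 in macrophages, 0.582 in migratory dendritic cells and 0.616 in CD4 T cells. In CD8 T cells 1 ibudilast cell carried 237 of 455 Ccl12 UMIs, and in CD4 T cells 1 PBS cell carried 45 of 174. For Ccr2 the ratio was 1.67 in type 1 conventional dendritic cells, 1.54 in CD4 T cells and 1.28 in regulatory T cells, against 0.566 in T cells of no other named class.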

How the results depend on the processing

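Of 168 alternative values of 16 ratios (ibudilast over PBS), 115 stayed within the counting interval, 52 left it, and 1 ratio past the call limit, monocyte Ccl7, changed its side of 1. Ratios inside the call limits changed side too: monocyte Ccl12 was below 1 in 10 of 12, transitional Ccl12 in 8 of 10, monocyte Ccr2 in 4 of 12 and transitional Ccr2 in 2 of 10. The cause was not tested. No paired analysis was possible because each group had 1 library, which also left no replicate to leave out. Stricter gates gave, in monocytes, Ccl2 0.764, Ccl7 0.378 and Ccr2 0.915, in transitional cells Ccl12 1.01, in macrophages Ccl2 0.578 and Ccr2 1.04, and in microglia Ccl7 0.479. A stricter cell filter gave macrophage Ccl7 0.700 and Ccl12 0.728 and microglial Ccl7 0.113. Weighting cells alike gave transitional Ccl2 0.860 and Ccl12 0.881, macrophage Ccl2 0.685, Ccl7 0.652 and Ccl12 0.815, and microglial Ccl7 0.386. Thinning gave monocyte Ccl12 0.744, transitional Ccl7 0.638, Ccl12 0.836 and Ccr2 0.975, macrophage Ccl2 0.724, Ccl7 0.677, Ccl12 0.878 and Ccr2 1.32, and microglial Ccl2 0.398, Ccl7 0.407 and Ccl12 0.536. Leiden clusters, none of which was named microglia, gave monocyte Ccl2 0.777, Ccl7 0.368 and Ccl12 1.02, transitional Ccl2 0.827, Ccl7 0.546 and Ccr2 1.12, and macrophage Ccl2 0.746, Ccl7 0.775 and Ccl12 0.837. Weighting macrophage states alike gave Ccl2 0.621. Monocytes with no C1q UMI gave Ccl2 0.690, Ccl7 7.41, Ccl12 3.36 and Ccr2 0.856. The following were chosen after seeing the data. A cap of 20 UMIs per cell gave monocyte Ccl2 0.906, Ccl7 0.614 and Ccl12 0.970, transitional Ccl2 0.895 and Ccl7 0.790, macrophage Ccl2 0.771, Ccl7 0.773 and Ccl12 0.925, and microglial Ccl2 0.697 and Ccl12 0.989. Without cells near a gate limit, Ccl12 was 0.974 in monocytes and 1.0 in transitional cells. Shares of cells with a UMI moved by thinning in 32 of 32, and shares of a library's UMIs moved in 23 of 32 with doublets kept. Few UMIs limit microglia.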

Other observations

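Barcodes over the mitochondrial limit, 1324 in the ibudilast and 801 in the PBS library, entered no comparison. Their Ccl2 level was 234 CPM in ibudilast and 286 CPM in PBS barcodes, Ccl7 92.5 CPM in ibudilast and 143 CPM in PBS barcodes, Ccl12 211 CPM in ibudilast and 361 CPM in PBS barcodes, and Ccr2 125 CPM in ibudilast and 110 CPM in PBS barcodes.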
